A study of Homo sapiens with 32 samples.

Results

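Chromatin loops at the genes of the cytoplasmic ribosome were described in 4 loop lists from in situ Hi-C, an assay that ligates DNA ends lying close together in the nucleus and so records contacts. Members were 73 protein-coding genes of 19111 on chromosomes 1 to 22. They were taken by symbol alone: RPL or RPS, digits and an optional A or X, together with RPSA, RPLP0, RPLP1 and RPLP2. Of these, 43 encode proteins of the large subunit, the 3 stalk proteins included, and 30 encode proteins of the small subunit. A loop belonged to a gene when 1 of its anchors, each 5 kb wide, lay within 10 kb of the annotated gene start. The rule took 244 of 45629 loops: 32 of 15180 in the wild-type (WT) control list, 72 of 5906 in the WT sorbitol list, 69 of 18966 in the eGFP-YAP control list and 71 of 5577 in the eGFP-YAP sorbitol list.

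The series holds 32 Hi-C samples of human cell lines and asks how hyperosmotic stress changes chromatin contacts. The groups used here were untreated HEK293 cells labelled WT (3 samples), the same cells after 1 h in 200 mM sorbitol (3 samples), HEK293 cells labelled eGFP-YAP without treatment (4 samples) and eGFP-YAP cells after 1 h in 200 mM sorbitol (4 samples). HEK293 is a human embryonic kidney line, sorbitol is a sugar alcohol that draws water out of cells, and YAP is a transcriptional co-activator of the Hippo pathway, here carried as an eGFP fusion. The labels do not say what drives the fusion or whether the eGFP-YAP line is 1 clone, and the growth protocol speaks of HEK293T where the labels say HEK293. Each group has 1 list, taken as pooled over its samples, so replicate spread could not be measured and conditions were compared without a test. A different source is named in the list names of each line, so cell line and source cannot be told apart. Sequencing depth is unknown, and a loop list gives no expression level with which to check the cell type. Intervals in brackets are exact 95% intervals. They cover counting error only and treat genes or loops as independent, which neighbours are not.

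The ribosome is built from ribosomal RNA and about equal amounts of each ribosomal protein. The genes for those proteins are scattered over the chromosomes and are among the most strongly transcribed in growing cells. Most start transcription at a cytosine inside a run of pyrimidines, the 5′ terminal oligopyrimidine (TOP) form, through which the mTOR pathway controls translation of the messenger RNA. Hi-C loops in untreated cells are often held by cohesin and stop at sites bound by CTCF, while other loops join promoters and enhancers.

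The start regions of 8 members are shown because their loops carry the main patterns below. RPS9, RPS13, RPS18, RPLP1 and RPS25 had loops in both sorbitol lists and in neither control list, and RPL41, RPS14 and RPS27 had loops in all 4 lists. Each line gives 60 bases before the RefSeq start and 15 bases from it, on the gene's strand, from RefSeq on GRCh38.p14. Capitals mark the pyrimidine run that begins at the first transcribed base.
RPS9, chr19:54200798-54200872, plus strand: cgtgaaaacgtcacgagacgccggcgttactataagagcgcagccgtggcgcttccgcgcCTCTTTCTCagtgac
RPS13, chr11:17077653-17077727, minus strand: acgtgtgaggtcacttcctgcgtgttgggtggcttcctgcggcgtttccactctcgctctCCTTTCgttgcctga
RPS18, chr6:33272015-33272089, plus strand: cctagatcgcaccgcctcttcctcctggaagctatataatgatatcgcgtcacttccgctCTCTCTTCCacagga
RPLP1, chr15:69452758-69452832, plus strand: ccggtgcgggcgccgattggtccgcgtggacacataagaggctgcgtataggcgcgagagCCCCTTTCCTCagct
RPS25, chr11:119018329-119018403, minus strand: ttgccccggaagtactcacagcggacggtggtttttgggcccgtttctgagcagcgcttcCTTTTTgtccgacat
RPL41, chr12:56116573-56116647, plus strand: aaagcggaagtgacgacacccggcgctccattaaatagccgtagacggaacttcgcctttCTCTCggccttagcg
RPS14, chr5:150449725-150449799, minus strand: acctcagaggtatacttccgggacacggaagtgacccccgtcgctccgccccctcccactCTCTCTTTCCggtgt
RPS27, chr1:153990702-153990776, plus strand: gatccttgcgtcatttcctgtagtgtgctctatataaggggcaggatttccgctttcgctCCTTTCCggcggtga

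All 8 begin with C and continue in pyrimidines, over a run of 5 bases at RPL41 to 11 bases at RPLP1. The RefSeq promoter table matched 58 of the 73 members. Of these, 40 (69.0%, 55.5 to 80.5%) had a C at the start followed by at least 4 further C or T bases, against 675 of 14616 protein-coding promoters (4.62%). The ETS core CCGGAAG, searched on both strands in the 250 bases before and 50 bases from the start, was found at 20 members (34.5%) and at 14.5% of all promoters. The YY1 core AAGATGG was found at 8 members (13.8%, against 6.35%), the SP1 core GGGCGG at 31 (53.4%, against 59.6%) and TATAAA at 5 (8.62%, against 9.72%). The ETS core ends in AAG, with which the YY1 core begins, so matches to these can overlap. These shares describe letters and not bound factors. Members with the TOP form had a loop in 14 of 40 cases in the WT control list and 27 of 40 in the WT sorbitol list. Members without it had one in 3 and 9 of 18 cases. In the eGFP-YAP lists the counts were 20 and 24 of 40 with the TOP form and 9 and 11 of 18 without it, and the intervals of the paired shares overlapped in every list. RPL6 and RPS29 are not printed because the RefSeq start lies over 1 kb from the start of the canonical transcript. Both were still counted among the 18 members without the TOP form. The RefSeq start was the canonical start at 52 of the 58 members. All the others were counted as without the form, and whether they have it at the canonical start was not tested.

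With sorbitol, most ribosomal protein genes had a loop anchor near their start in both lines. In the WT control list 20 of the 73 genes (27.4%, 17.6 to 39.1%) had a loop, against 29.9% of all protein-coding genes. In the WT sorbitol list 46 genes (63.0%, 50.9 to 74.0%) had one, against 28.7%. The eGFP-YAP control list had loops at 39 genes (53.4%, 41.4 to 65.2%), against 38.3%, and the eGFP-YAP sorbitol list at 45 genes (61.6%, 49.5 to 72.8%), against 29.5%. The WT control share was thus close to that of all coding genes and the other shares were above it. In WT cells the intervals of the control and sorbitol shares did not overlap, and in eGFP-YAP cells they did. Of the 73 genes, 66 had a loop in at least 1 list. The 7 genes with a loop in no list (9.59%, against 37.7% of coding genes) were RPL18, RPL22, RPL23, RPS20, RPS24, RPS27A and RPSA.

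**Figure D1:**
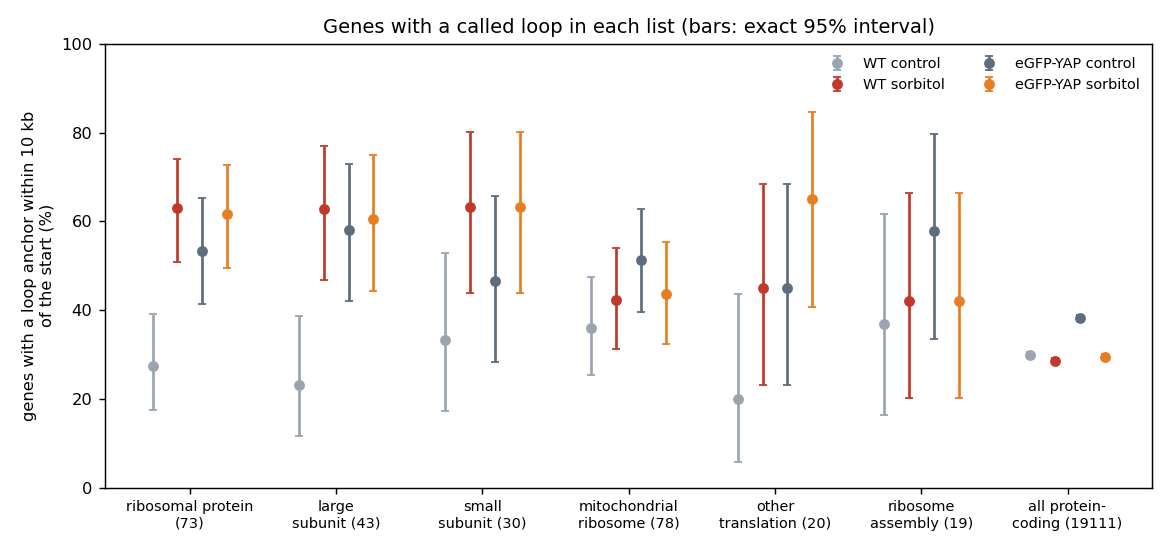
Percent of genes with a loop anchor within 10 kb of the start (vertical axis) for the ribosomal protein genes, their subunits and other gene lists (number of genes in brackets), by loop list. Points are shares and bars exact 95% intervals for counting error; the ribosomal protein shares were 27.4% and 63.0% in the WT control and sorbitol lists and 53.4% and 61.6% in the eGFP-YAP lists, while all coding genes lay between 28.7% and 38.3%.

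The number of loops at these genes did not follow the length of the lists. The WT sorbitol list was 0.389 times as long as the WT control list, yet held 72 ribosomal protein loops against 32, a ratio of 2.25 (1.46 to 3.53). Over all loops near a protein-coding start the same ratio was 0.658 (0.631 to 0.687). In eGFP-YAP cells the counts were 71 and 69, a ratio of 1.03 (0.728 to 1.45), against 0.478 (0.460 to 0.497) near all coding starts and 0.294 over the whole lists. The ratio at ribosomal protein genes was thus above that at coding starts in both lines, and the intervals did not overlap. When each control list was shortened to the length of its sorbitol list by keeping the top scores, 9 loops remained near ribosomal protein genes in WT and 15 in eGFP-YAP. The ratios were then 8 (3.99 to 18.2) and 4.73 (2.69 to 8.90), against 1.73 and 1.87 at coding starts. This put a score limit on the control lists only. With the upper 50% by score kept in every list, the ratios were 3.08 (1.57 to 6.49) in WT and 1.09 (0.586 to 2.04) in eGFP-YAP.

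Gene by gene, 34 members had more sorbitol than control loops in WT cells (46.6%, against 19.6% of coding genes) and 9 had fewer (12.3%, against 20.4%). In eGFP-YAP cells 24 members had more (32.9%, against 16.8%) and 22 had fewer (30.1%, against 27.8%). A sorbitol loop without any control loop was found at 30 members in WT (41.1%, against 15.8%) and at 19 in eGFP-YAP (26.0%, against 12.9%). The reverse, a control loop without any sorbitol loop, was found at 4 members in WT (5.48%, against 17.0%) and at 13 in eGFP-YAP (17.8%, against 21.7%). Of the genes with a sorbitol loop, 32 had one in both lines, which is 69.6% of the WT genes (54.2 to 82.3%) and 71.1% of the eGFP-YAP genes (55.7 to 83.6%). Over all coding genes these shares were 61.8% and 60.1%, inside both intervals. Of the genes with a control loop, 15 had one in both lines, which is 75% of the WT genes and 38.5% of the eGFP-YAP genes, against 69.9% and 54.6% of coding genes.

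The subunits were set side by side. Large-subunit genes had 16 loops in the WT control list and 50 in the WT sorbitol list, a ratio of 3.13 (1.75 to 5.88). Small-subunit genes had 16 and 23, a ratio of 1.44 (0.727 to 2.91). In eGFP-YAP cells the counts were 40 and 43 for the large subunit and 29 in each list for the small subunit. The intervals of the subunits overlapped in both lines. By gene, 27 of 43 large-subunit genes and 19 of 30 small-subunit genes had a WT sorbitol loop, 62.8% and 63.3%. The stalk proteins, which recruit translation factors to the large subunit, had no loop in either control list. RPLP0 had 4 loops in the WT sorbitol list and none in the others, RPLP1 had 1 in each sorbitol list, and RPLP2 had 1 in the eGFP-YAP sorbitol list.

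**Figure D2:**
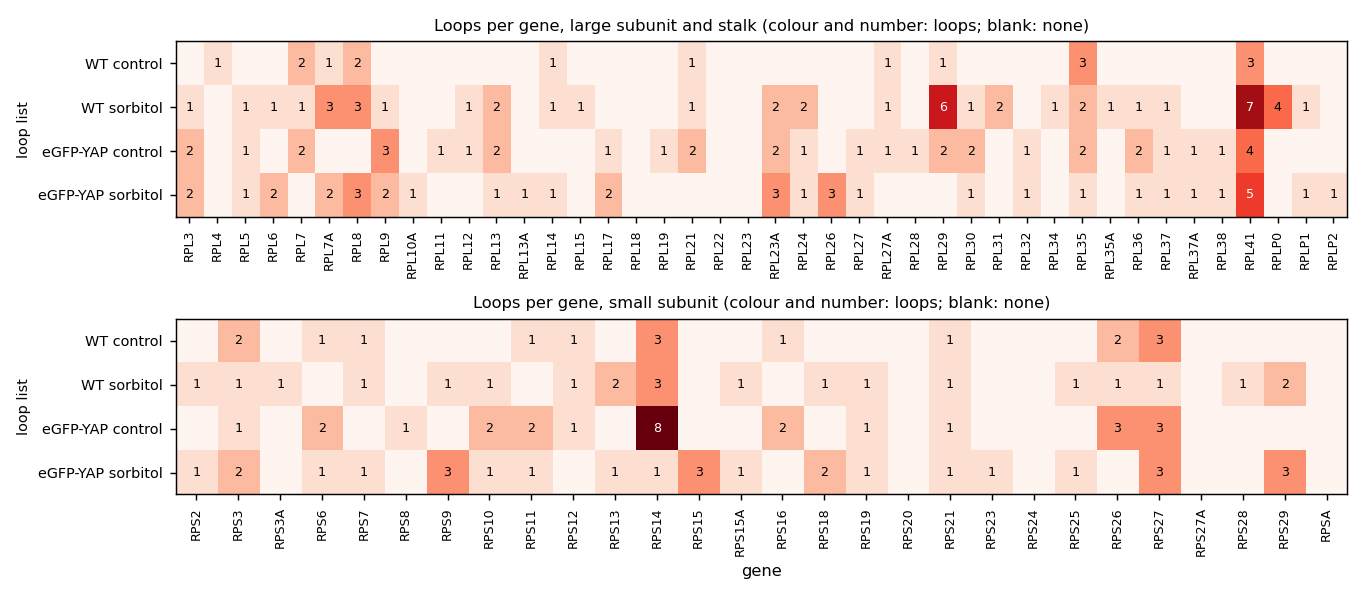
Number of loops at each of 70 ribosomal protein genes (columns) in each of the 4 lists (rows), with large-subunit and stalk genes above and small-subunit genes below. Colour and printed number both give loops and blank cells are 0; RPS14 reached 8 loops in the eGFP-YAP control list and RPL41 reached 7 in the WT sorbitol list.

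The anchors lay close to the gene starts in the sorbitol lists. Within 5 kb of the 73 starts, the WT control list had 8 anchor centres and the WT sorbitol list 46. The eGFP-YAP lists had 27 and 46. Per 100 genes and 10 kb this was 11.0, 63.0, 37.0 and 63.0 anchors in the order WT control, WT sorbitol, eGFP-YAP control and eGFP-YAP sorbitol, against 19.1, 26.8, 31.3 and 29.1 for all coding genes. Between 5 and 100 kb from the ribosomal protein starts the same densities were 18.5, 14.1, 26.7 and 13.4. The density near the start was therefore 0.591 times the surrounding one in the WT control list and 1.39 times in the eGFP-YAP control list, against 1.27 and 1.51 times over all coding genes. It was 4.46 and 4.70 times in the sorbitol lists, against 2.87 and 2.98 times over all coding genes.

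**Figure D3:**
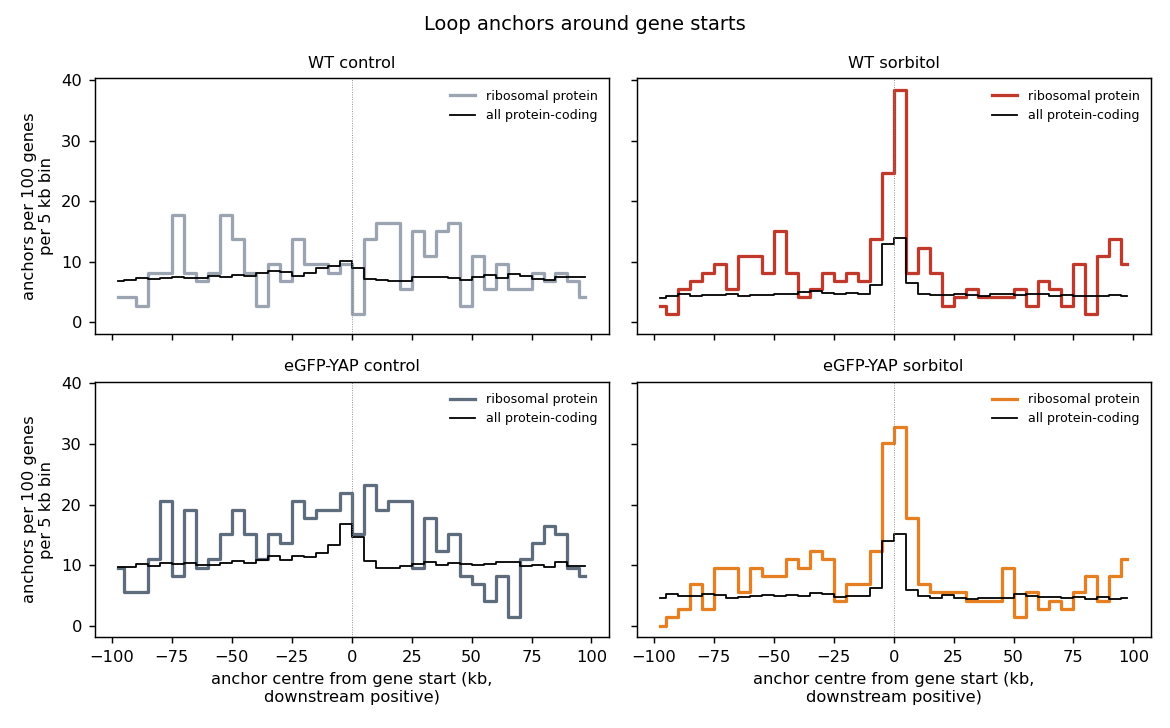
Loop anchors per 100 genes in 5 kb bins (vertical axis) by distance of the anchor centre from the gene start (horizontal axis, kb, downstream positive), 1 panel per list, for the 73 ribosomal protein genes (coloured) and 19111 coding genes (black). Both sorbitol panels have a peak at the start that holds 46 anchors within 5 kb, and the WT control panel, with 8, has none.

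The distance allowed between anchor and start set the size of the ratio. Counting only loops whose anchor holds the start itself, the WT lists had 4 control and 22 sorbitol loops, a ratio of 5.50 (1.87 to 21.96), and the eGFP-YAP lists 8 and 31, a ratio of 3.88 (1.74 to 9.76). The same ratios over coding starts were 1.21 and 0.821. At 25 kb the WT counts were 84 and 100, a ratio of 1.19 (0.882 to 1.61), and the eGFP-YAP counts were 151 and 97, a ratio of 0.642 (0.493 to 0.834), below 1. The coding ratios at 25 kb were 0.532 and 0.396. In eGFP-YAP 56 members had a control loop and 49 a sorbitol loop at 25 kb, the opposite order to that at 10 kb. At every distance the ribosomal protein ratio was above the coding ratio of its line. A ribosomal protein start was the coding start nearest to the anchor in 21 of 32, 47 of 72, 46 of 69 and 46 of 71 loops in the same order of lists. The remaining anchors lay closer to the start of a neighbouring gene. Among these were the WT loops, named below, of RPS27 to GATAD2B and CHTOP and of RPS25 to RNF26.

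Neighbouring genes were counted as well. The median number of other coding starts within 250 kb was 7 for ribosomal protein genes and 7 for all coding genes. The spread differed: 24.7% of ribosomal protein genes had at most 4 such neighbours, against 35.8% of coding genes. More than 10 neighbours were found at 41.1%, against 32.2%. Among genes with at most 4 such neighbours, 11 of 18 ribosomal protein genes had a WT sorbitol loop (61.1%, 35.7 to 82.7%), against 19.4% of coding genes. In eGFP-YAP cells 9 of 18 had a sorbitol loop (50%, 26.0 to 74.0%), against 21.0%. A control loop was found at 4 of 18 in WT (22.2%, against 29.9%) and at 8 of 18 in eGFP-YAP (44.4%, against 36.9%). Among genes with more than 10 neighbours, 18 of 30 in WT (60%, against 37.0%) and 20 of 30 in eGFP-YAP (66.7%, against 36.9%) had a sorbitol loop. With control it was 7 of 30 (23.3%, against 30.5%) and 16 of 30 (53.3%, against 39.7%). Between these limits 17 of 25 (68%, against 30.7%) and 16 of 25 (64%, against 31.5%) had a sorbitol loop. There 9 of 25 (36%, against 29.4%) and 15 of 25 (60%, against 38.4%) had a control loop. Chromosome 19, which carries 12 members, had 2, 6, 7 and 8 of them with a loop in the 4 lists (16.7, 50, 58.3 and 66.7%), against 24.5, 29.7, 34.6 and 36.3% of the coding genes on that chromosome.

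Other genes of the translation machinery were counted the same way. Of 78 mitochondrial ribosomal protein genes, whose products form the ribosome of mitochondria, 28, 33, 40 and 34 had a loop in the WT control, WT sorbitol, eGFP-YAP control and eGFP-YAP sorbitol lists. Their loop ratio was 1.53 (0.974 to 2.43) in WT and 0.583 (0.401 to 0.839) in eGFP-YAP. Of 20 other translation genes, initiation and elongation factors among them, 4, 9, 9 and 13 had a loop, with ratios of 2.80 (0.953 to 9.93) and 1.13 (0.542 to 2.36). Of 19 ribosome assembly genes, 7, 8, 11 and 8 had a loop, with ratios of 0.909 (0.346 to 2.36) and 0.714 (0.284 to 1.73). In WT cells the intervals of these 3 ratios overlapped that of the ribosomal protein genes. In eGFP-YAP cells all 3 overlapped it as well. Of all coding genes, 29.9, 28.7, 38.3 and 29.5% had a loop, with ratios of 0.658 and 0.478. With sorbitol the shares were 42.3% and 43.6% (mitochondrial), 45% and 65% (other translation) and 42.1% in each line (assembly). All 3 lists had ratios above the coding ratio in both lines, so this was not particular to ribosomal protein genes. The assembly intervals and the eGFP-YAP mitochondrial interval held the coding ratio.

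At 9 members a loop was called in both sorbitol lists and in neither control list (12.3%, against 5.38% of coding genes). They were RPS29, RPS9, RPL6, RPS13, RPS18, RPLP1, RPS15A, RPS2 and RPS25, of which 7 belong to the small subunit. Of all 73 members, 30 do, and a difference between the subunits in this pattern was not tested. RPS29 had 2 loops in the WT and 3 in the eGFP-YAP sorbitol list. In each line a short loop of 45 or 35 kb left from the same anchor at chr14:49585001-49590000, which holds the canonical start of RPS29. In WT it ended inside DNAAF2, a dynein assembly factor gene, and in eGFP-YAP at the starts of MGAT2 and RPL36AL, a ribosomal protein paralogue that the symbol rule leaves out. RPS9 had 1 loop in WT, to the starts of PRPF31, a splicing factor, and TFPT at 85 kb. It had 3 in eGFP-YAP, among them one to CNOT3, a subunit of the CCR4-NOT deadenylase, at 55 kb and one to CACNG8 at 210 kb. All 4 loops ran upstream of RPS9.

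RPL6 was joined to the start of NAA25, a subunit of an N-terminal acetyltransferase, over 310 kb in WT and 300 kb in eGFP-YAP. The score percentile of that loop, its rank by the caller's score within its list, was 92.4 in WT and 19.7 in eGFP-YAP. RPS15A, a small-subunit protein, was joined to a stretch inside SMG1, a kinase of nonsense-mediated decay, over 115 kb in WT (percentile 95.5) and 125 kb in eGFP-YAP (60.6). RPS18 had a loop of 60 kb to the start of RING1, a Polycomb protein, in WT. In eGFP-YAP the matching loop of 70 kb ended at the starts of HSD17B8, RXRB and SLC39A7. RPS13, RPLP1, RPS2 and RPS25 had loops in both sorbitol lists that ended in different places. RPS13 reached the start of SOX6 over 335 kb in WT (percentile 96.4) and the gene PLEKHA7 over 135 kb in eGFP-YAP. It also had a WT sorbitol loop of 110 kb that ran upstream (percentile 28.6). RPLP1 reached PAQR5 over 45 kb and NOX5 over 400 kb. RPS2 reached NTHL1, a DNA repair glycosylase, over 75 kb in WT and BRICD5 with PGP over 245 kb in eGFP-YAP. RPS25 reached RNF26 over 305 kb upstream in WT and BCL9L with UPK2 over 90 kb downstream in eGFP-YAP.

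RPS16, on chromosome 19, was the only member with a loop in both control lists and in neither sorbitol list (1.37%, against 7.70% of coding genes). Its WT control loop of 95 kb ended at the start of EID2B. In eGFP-YAP it had a loop of 95 kb to a stretch inside EID2 and one of 230 kb with a percentile of 96.6.

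At 6 members a loop was called in all 4 lists (8.22%, against 6.93%): RPL41, RPS14, RPS27, RPL35, RPS3 and RPS21. RPL41, which encodes the smallest ribosomal protein, had the most loops of any member, 3 in the WT control, 7 in the WT sorbitol, 4 in the eGFP-YAP control and 5 in the eGFP-YAP sorbitol list. All 7 control loops ran downstream, over 35 to 180 kb. At the 3 in WT another coding start lay nearer to the anchor than that of RPL41. In the sorbitol lists loops also ran upstream, over 400 kb in WT to an anchor holding the starts of BLOC1S1 and ITGA7 and over 70 kb to RPS26, and over 120, 195 and 290 kb in eGFP-YAP, the first 2 of them to SUOX and DGKA. A loop to the starts of NABP2 and RNF41, at 95 or 105 kb, was in the WT sorbitol list and both eGFP-YAP lists. The WT control list also had a loop that matched it within 10 kb at each end. That loop was not counted at RPL41 because its anchor lay beyond the 10 kb reach.

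RPS14 is a small-subunit protein whose gene lies in the interval deleted in 5q- syndrome. It had 3 and 3 loops in WT and 8 and 1 in eGFP-YAP, so the eGFP-YAP control list stood apart from the other lists. In both sorbitol lists it was joined to the start of TCOF1, the gene of the nucleolar protein treacle, over 100 kb in WT (percentile 53.8) and 95 kb in eGFP-YAP (19.02). The control lists had loops from an anchor 9739 bp downstream of the RPS14 start to the body of TCOF1, over 50 kb in WT and 75 kb in eGFP-YAP. These did not match the sorbitol loops, because the anchor centres at RPS14 lay more than 10 kb apart. In WT the centres at TCOF1 lay more than 10 kb apart as well. Control loops to the body of NDST1, a heparan sulfate enzyme, at 95 and 90 kb were in neither sorbitol list.

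RPS27, a small-subunit protein with a zinc finger, had 3, 1, 3 and 3 loops in the order of lists used above. A control loop of 190 kb to GATAD2B, a NuRD complex subunit, had the same anchors in both lines (percentiles 80.6 and 89.0) and was in neither sorbitol list. The sorbitol lists had a loop to CHTOP, an mRNA export factor, over 350 kb in WT and 360 kb in eGFP-YAP (percentiles 64.3 and 66.3). RPS27 thus had loops in every list, and no control loop of RPS27 had a partner in the sorbitol list of its line.

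RPL35 had 3, 2, 2 and 1 loops. Its loop of 80 kb to the start of NR6A1, an orphan nuclear receptor, was in both control lists at percentiles of 93.5 and 93.0. In the WT list this was the highest rank of any loop at a ribosomal protein gene. The near anchor of that WT loop lay 6981 bp from the RPL35 start, and another coding start was nearer to it. With sorbitol a matching loop was called over 90 kb in WT (86.4), again to the start of NR6A1. The matching eGFP-YAP loop of 75 kb (47.8) had a far anchor that held the start of a different gene. RPS3 had 2, 1, 1 and 2 loops, and the loop of 125 kb to the start of GDPD5 was at the same position in both sorbitol lists (percentiles 62.7 and 55.8). It had a partner in the eGFP-YAP control list but none in the WT control list. RPS21 had 1 loop in each list, all towards ADRM1, a ubiquitin receptor of the proteasome, at 70, 80, 80 and 80 kb. Its percentiles were 47.7 and 31.3 in WT and 74.3 and 11.1 in eGFP-YAP, and each of these loops had a partner in the other treatment of its line.

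RPL29, a heparin-binding large-subunit protein, had 1 and 6 loops in WT and 2 and 0 in eGFP-YAP. All 9 loops ran upstream. The 6 WT sorbitol loops covered 140 to 525 kb and ended at or in POC1A, ALAS1, WDR82, PHF7, NISCH, and NT5DC2 with STAB1. Of the control loops, 1 in each line ended in POC1A, over 120 kb in WT and 145 kb in eGFP-YAP. Only 1 loop joined ribosomal protein genes to each other. It lay in the WT sorbitol list and ran over 70 kb from the bin chr12:56040001-56045000, which holds the start of RPS26, to chr12:56110001-56115000 beside RPL41. A control loop of 50 kb matched it within 10 kb at each end. RPS26 itself had 2, 1, 3 and 0 loops.

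**Figure D4:**
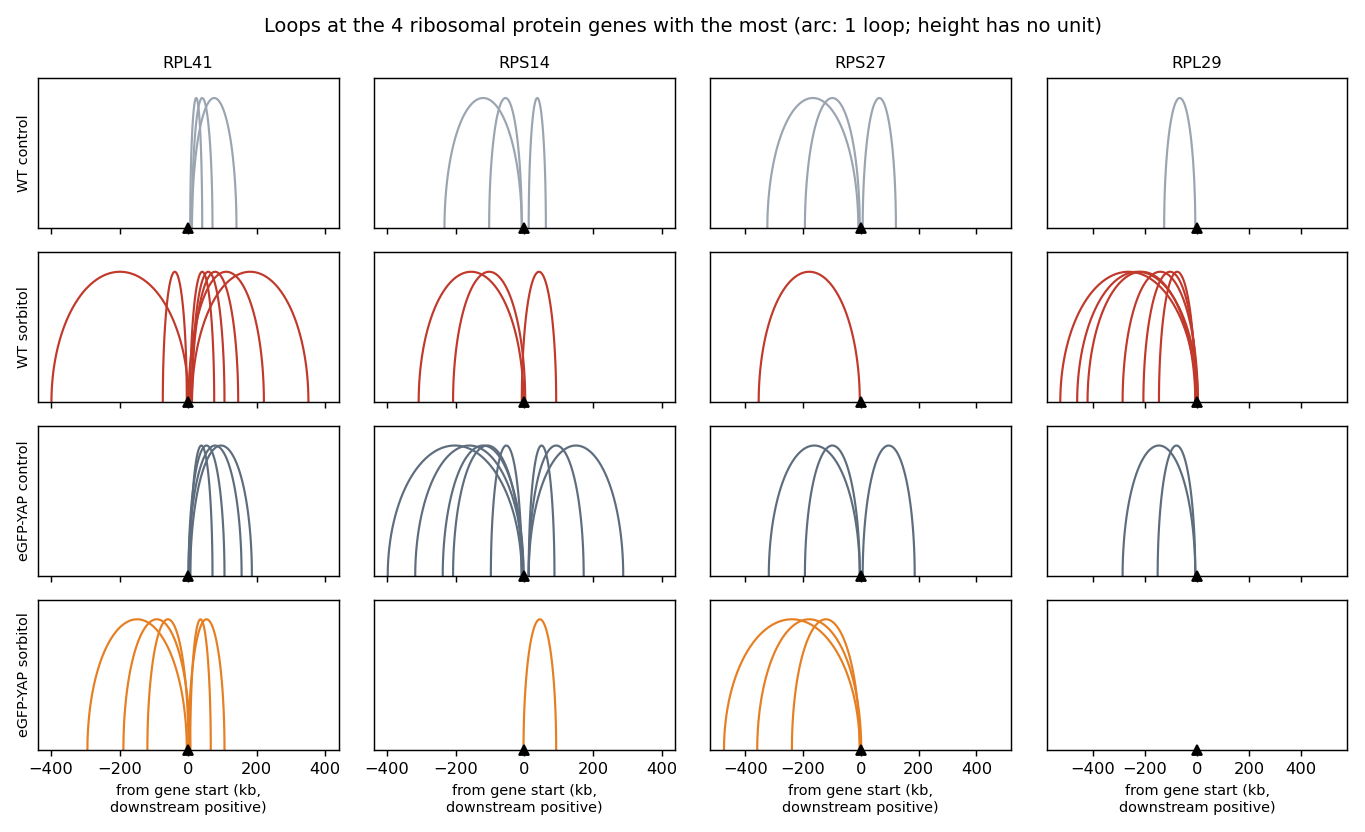
Loops at RPL41, RPS14, RPS27 and RPL29 (columns), the 4 members with the most loops, in each list (rows), drawn as arcs between anchor centres by distance from the gene start (horizontal axis, kb, downstream positive); arc height has no unit and the triangle marks the start. RPL29 has 6 arcs in the WT sorbitol row and 0 in the eGFP-YAP sorbitol row, and RPL41 has upstream arcs in the sorbitol rows only.

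Few single loops were called in both treatments. Loops of separate lists matched when their left centres and their right centres differed by at most 10 kb. Of the WT sorbitol loops at ribosomal protein genes, 64 of 72 (88.9%, 79.3 to 95.1%) had no WT control partner, against 79.9% of all WT sorbitol loops. In eGFP-YAP the count was 55 of 71 (77.5%, 66.0 to 86.5%), against 68.4%. At loops near all coding starts the shares were 83.3% and 75.1%, inside both intervals. Of the control loops, 9 of 32 in WT (28.1%, 13.7 to 46.7%) and 15 of 69 in eGFP-YAP (21.7%, 12.7 to 33.3%) were called again with sorbitol, against 7.81% and 9.28% of all control loops and 10.9% and 11.6% of those near coding starts. Of the 64 new WT loops, 27 (42.2%) had neither anchor within 10 kb of any control anchor, against 33.5% at coding starts. In eGFP-YAP this was 15 of 55 (27.3%), against 25%.

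Between the lines, 20 of the 72 WT sorbitol loops (27.8%) had an eGFP-YAP sorbitol partner, against 24.2% of all WT sorbitol loops, and 21 of the 71 eGFP-YAP sorbitol loops (29.6%) had a WT sorbitol partner, against 25.7%. With control the counts were 16 of 32 in WT (50%, against 40.2%) and 15 of 69 in eGFP-YAP (21.7%, against 32.2%). For loops near all coding starts the shares were 28.8% and 28.1% with sorbitol and 47.5% and 33.5% with control (WT, then eGFP-YAP). The sorbitol shares at ribosomal protein genes were thus close to those near coding starts. The 20 WT loops with a partner formed 20 pairs. They lay at 18 genes. At 10 of those genes 1 pair had no partner in either control list, among them RPS27, RPL6, RPS29, RPS15A, RPS7, RPL14, RPS14, RPS18 and RPL30. RPL14, a large-subunit protein, was joined over 145 kb to the start of EIF1B, a translation initiation factor gene, in WT. The eGFP-YAP loop of the same span had both anchors 1 bin further on. RPL30 was joined over 75 and 70 kb to a bin with the starts of POP1, a subunit of RNase P and RNase MRP, and RIDA in both lines. RPL14, RPL30 and RPS7 were named after their values were seen.

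The far anchors, those at the other end from the ribosomal protein gene, held another gene start in a larger share of loops in the sorbitol lists. The same rise was found for loops at all coding starts, so it was not particular to ribosomal protein genes. A protein-coding start lay in 9 of 32 WT control far anchors (28.1%, 13.7 to 46.7%), against 9.34% for loops at all coding starts. In the WT sorbitol list it was 30 of 72 (41.7%, 30.2 to 53.9%), against 34.9%, which lay inside the interval. In eGFP-YAP it was 18 of 69 (26.1%, 16.3 to 38.1%) with control, against 12.9%, and 39 of 71 (54.9%, 42.7 to 66.8%) with sorbitol, against 40.2%. In eGFP-YAP the intervals of control and sorbitol did not overlap, and in WT they did. Far anchors outside any protein-coding gene were few, 5 of 32, 10 of 72, 12 of 69 and 6 of 71. Of all far anchors, 16, 28, 31 and 30 lay downstream of the ribosomal protein gene.

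**Figure D5:**
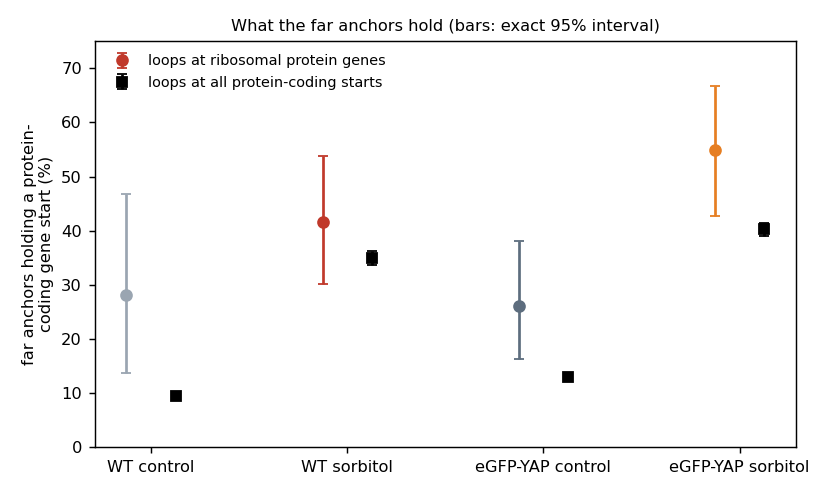
Percent of far anchors that hold a protein-coding gene start (vertical axis) in each list, for loops at ribosomal protein genes (coloured circles) and at all protein-coding starts (black squares), with exact 95% intervals. The ribosomal protein shares were 28.1% and 41.7% in WT and 26.1% and 54.9% in eGFP-YAP.

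A CTCF motif with at most 1 mismatch lay in 14 of 32 anchors at ribosomal protein genes in the WT control list (43.8%, 26.4 to 62.3%), against 24.9% of all WT control anchors. In the WT sorbitol list it was 20 of 73 (27.4%), against 21.2%. In eGFP-YAP it was 29 of 69 (42.0%) with control, against 34.1%, and 17 of 71 (23.9%) with sorbitol, against 28.2%. The share was thus lower in the sorbitol list of each line, with overlapping intervals. Anchors near all coding starts, the closer comparison, had a motif in 28.8, 21.0, 35.4 and 24.0% of cases in the same order, so the eGFP-YAP sorbitol share was close to that of coding starts. Motif sites of 2 loops are shown, the highest-ranked one of the WT control list and the longest one of both control lists. Each line gives the matched bases on the motif's strand, all in capitals, on hg38. All of these matches lay outside protein-coding genes.
RPL35 loop, far anchor, chr9:124772194-124772207, plus strand: CCACCAGGTGGCGC
RPL35 loop, far anchor, chr9:124774568-124774581, plus strand: CCAGCAGGGGGCAG
RPL35 loop, near anchor, chr9:124853209-124853222, minus strand: CCACTAGAGGGCGC
RPS12 loop, near anchor, chr6:132823148-132823161, plus strand: CCAGCAGAGGGCAG
RPS12 loop, far anchor, chr6:133553863-133553876, minus strand: ACAGCAGGTGGCAG
At RPL35 and RPS12 the motif on the left anchor was on the plus strand and that on the right anchor on the minus strand, so the motifs pointed towards each other. None of the other loops that were the highest-ranked or longest of a list had a motif in both anchors, and at RPL17 the only match lay on the plus strand of the right anchor. The RPS12 loop of 730 kb was the longest at a ribosomal protein gene in both control lists (percentiles 88.9 and 75.6) and had no sorbitol partner. The longest WT sorbitol loop joined RPL24 to a stretch inside TFG over 955 kb, and no motif was found in either anchor. The highest-ranked eGFP-YAP sorbitol loop joined RPL17 to the start of CXXC1, a CpG-binding protein, over 795 kb (96.4), and the longest joined RPS23 to SSBP2 over 850 kb.

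Loops at ribosomal protein genes spanned a median of 117.5 kb (80.0 to 190 kb) in the WT control list and 182.5 kb (110 to 230 kb) in the WT sorbitol list. In eGFP-YAP the medians were 155 kb (100 to 200 kb) and 180 kb (135 to 245 kb). Over all loops the medians were 240, 215, 260 and 230 kb in the same order, so the control loops at these genes were shorter than the lists as a whole. Near all coding starts they were 185, 185, 210 and 200 kb. The median score percentile was 46.3 and 52.3 in WT and 34.5 and 38.9 in eGFP-YAP, where loops near all coding starts had 45.4 and 46.3. Median GC content of the anchors at ribosomal protein genes was 47.3, 49.6, 48.5 and 49.4% in the same order of lists, against 42.4, 46.1, 42.4 and 46.8% over all anchors. At anchors near all coding starts it was 46.5, 49.1, 46.4 and 49.3%. The part of GC content and of list length in the counts was not tested.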

How the data were processed

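In situ Hi-C loop lists of 4 groups, to which 14 samples belong by their labels, were analysed. By their names, the deposited lists come from the SIP loop caller, with 1 list per group. Their columns name no sample, so the lists were taken as pooled over replicates. Which samples went into each list is not given. Its settings, the aligner and the depth are not given in the sources used here. Anchor coordinates fit hg38, the build in the submitters' processing notes. The deposited peak score has no fixed scale and was used to rank loops within 1 list. Another deposited column, the caller's probability of enrichment, holds a fraction whose lowest value was 0.900. No filter was put on it. Counts of reads were not used here.

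Gene starts came from GENCODE release 44 and promoters from RefSeq. Loops matched at up to 10 kb between centres at each end. Shares have exact Clopper-Pearson intervals, count ratios exact binomial ones and medians order-statistic ones (SciPy 1.17.1, pandas 2.3.3, Python 3.11.15). The matching code was checked on planted loops. The members and gene lists were chosen with earlier results of these data known. Genes were named when they had loops in both sorbitol lists only, both control lists only or all lists, were joined to another member, were among the 5 with most loops, or carried the highest-ranked or longest loop of a list. The alternatives were other distances, starts, score limits, matching distances, merged or shortened lists and omission of chromosome 19. The other 18 samples were not used here. Of the genes and loops the rule selected, 3 members, the loops named through them and 1 gene at a far anchor are not reported here by name.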

Additional observations from a re-analysis of the deposited data

Results flagged for a closer look

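Of 39 differences between sorbitol and control that were set side by side for the lines, 5 had opposite signs in WT and eGFP-YAP, and none of these was tested. RPL29 had 5 loops more with sorbitol in WT cells (1 and 6) and 2 fewer in eGFP-YAP cells (2 and 0). RPS3 had 1 loop fewer in WT cells (a difference of -1, from 2 to 1) and 1 more in eGFP-YAP cells (from 1 to 2). The share of far anchors with a CTCF motif was 37.5% and 22.2% in the WT control and sorbitol lists, a difference of -15.3 percentage points, and 29.0% and 29.6% in eGFP-YAP, a difference of 0.592 points. The share of mitochondrial ribosomal protein genes with a loop was 6.41 points higher with sorbitol in WT (35.9% and 42.3%) and lower in eGFP-YAP (51.3% and 43.6%). For the ribosome assembly genes it was 5.26 points higher in WT (36.8% and 42.1%) and lower in eGFP-YAP (57.9% and 42.1%).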

How the results depend on the processing

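No paired analysis was possible because each group has 1 loop list that names no sample, and for the same reason no replicate could be left out. Of 106 values under alternatives, 70 stayed within the interval of the value reported, or within 1.5 times of it for counts of genes. None of the 22 values without chromosome 19 moved. The ratio of sorbitol to control loops reversed once, to 0.642 in eGFP-YAP at a distance of 25 kb. The WT ratio at 25 kb was 1.19. With the start inside an anchor the ratios were 5.50 and 3.88 (WT, then eGFP-YAP), and with the control list shortened they were 8 and 4.73. In the upper 50% by score of every list they were 3.08 and 1.09. Counting only loops with a ribosomal protein start as the nearest coding start, an alternative chosen after seeing the data, gave 2.24 and 1.00.

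Genes with a loop numbered 3, 19, 7 and 25 with the start inside an anchor (WT control, WT sorbitol, eGFP-YAP control, eGFP-YAP sorbitol), which is 4.11, 26.0, 9.59 and 34.2%, against 8.52, 13.1, 13.3 and 14.2% of coding genes, so both control shares were below the coding share. They numbered 10, 29, 17 and 19 in the upper 50% by score. At 25 kb they numbered 42, 51, 56 and 49 (57.5, 69.9, 76.7 and 67.1%, against 49.9, 39.5, 60.2 and 41.2%), so in eGFP-YAP more genes had a control than a sorbitol loop, the reverse of 39 and 45 at 10 kb. In the shortened control lists, also chosen after seeing the data, they numbered 8 and 12 (11.0 and 16.4%, against 12.8 and 11.9%). Far anchors with a coding start within 5 kb made up 46.9, 77.8, 53.6 and 78.9%. Matching at 0 kb left no control partner for 100% and 94.4% of sorbitol loops and called 0% and 5.80% of control loops again. Matching at 25 kb gave 79.2% and 60.6% without a partner and 34.8% called again in eGFP-YAP. In eGFP-YAP the upper 50% by score gave 95.8% and 4.55%, and starts inside an anchor gave 12.5% called again, of 8 loops. Median spans moved to 240 kb in the WT control list (score percentile 64.5, of 4 loops) and 95 kb in the eGFP-YAP control list with the start inside an anchor, and to 205 and 260 kb in the eGFP-YAP lists in the upper 50% by score. The cause of these shifts was not tested beyond the change in the number of loops counted.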
